A study of Mus musculus with 16 samples.

Results

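Cytosolic ribosomal protein genes encode the proteins of the small (40S) and large (60S) ribosomal subunits. They were taken here as the protein-coding genes whose mouse symbol begins with Rpl or Rps and a digit, together with Rplp0, Rplp1, Rplp2 and Rpsa, and without the ribosomal protein S6 kinases and names ending in -ps. The rule gave 86 of the 51912 genes in the count table, 33 of the small and 52 of the large subunit. The last, Rps19bp1, matched by name only: it encodes a binding partner of the small subunit protein Rps19 and is no ribosomal protein. Of the 86 genes, 84 passed the filter on low counts among 14979 genes tested, and Rpl10l (1 count in all libraries) and Rpl3l (39 counts) did not.

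Bulk mRNA-Seq was performed on group 2 innate lymphoid cells (ILC2s) from the lungs of WT mice and of Pac1-/- mice, which lack the phosphatase PAC1, encoded by Dusp2. ILC2s are tissue-resident lymphocytes that secrete type 2 cytokines when epithelial alarmins such as IL-33 reach them. Cells were kept for 4 hours with IL-7 (100 ng/mL), with IL-7 and IL-33 (100 ng/mL), or with IL-7 and IL-33 plus either calcitonin gene-related peptide (CGRP, 500 ng/mL) or neuromedin U (NMU, 500 ng/mL), and about 500 cells were then sorted per library. Each of the 8 groups had 2 libraries, 16 in all, so every group shared IL-7, and the CGRP and NMU groups also held IL-33. In what follows IL-33, CGRP and NMU name these treatments in full. The comparisons ask how these neuropeptides change the response to IL-33 and whether PAC1 alters it. The sources used here did not say whether the libraries of a group came from separate mice or cultures, so P values measure the spread between libraries, which may be technical.

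Ribosomal proteins are made in near equal numbers to assemble on ribosomal RNA, and their mRNAs are among the most abundant in a growing cell. Most of these mRNAs begin at a cytosine followed by a run of pyrimidines, the 5′ terminal oligopyrimidine (TOP) tract, through which the kinase mTORC1 sets their translation. In lymphocytes, activation and growth are known to go with higher ribosome production, which also needs nucleolar processing factors that are not part of the mature ribosome.

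Total counts ran from 6764992 to 15963357 per library. ILC2 markers were high in every library: the 12 listed genes summed to between 7680 and 11500 CPM (counts scaled to a library total of 1000000), and Gata3 had at least 3403 and Il1rl1 at least 3357 counts, although Il17rb ranged from 0 to 324 counts. No read was counted for Dusp2 in any of the 8 knockout libraries, but neither was one in 6 of the 8 WT libraries (57 counts at most), so its level could not check the genotype labels. The WT NMU libraries stood apart in carrying the alveolar surfactant transcript Sftpc, at 171 and 108 CPM, while no other library passed 0.172 CPM. The 7 epithelial markers summed to 219 and 318 CPM there, to 31.9 to 54.8 CPM in the Pac1-/- NMU libraries and to at most 94.6 CPM elsewhere, with Sftpb and Scgb3a2 at 0 in all libraries. The Pac1-/- CGRP libraries stood apart in the 6 B cell markers, which summed to 407 and 503 CPM against 123 to 191 CPM in WT CGRP and 14 to 126 CPM in the other 12 libraries. Ms4a1, a defining B cell marker, had 81.5 and 69.8 CPM in those Pac1-/- libraries and at most 11 CPM in any other.

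The sequences at the start of the transcripts are shown because the TOP tract is the feature the family is known for. Each is the 30 bases from 10 before to 20 from the start site in RefSeq (GRCm38.p6), on the strand of the gene. Capitals mark the longest run of a C followed by at least 5 C or T among those opening within 10 bases of the annotated start. Rps6 (the substrate of S6 kinase), Rps18 and Rpl27a hold clear tracts, and Rps27 holds one that spans the annotated start. Rpl39 holds a run that opens 6 bases after the start. The runs of their paralogs Rps27l and Rpl39l open at -10 and -7 relative to the start. Both end before it, so they lie outside the mRNA as annotated. Rpl7l1 and Rps19bp1 hold none.
Rps6, chr4:86857348-86857377, minus strand: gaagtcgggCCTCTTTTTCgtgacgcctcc
Rps18, chr17:33955646-33955675, minus strand: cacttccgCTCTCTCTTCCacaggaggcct
Rpl27a, chr7:109519185-109519214, plus strand: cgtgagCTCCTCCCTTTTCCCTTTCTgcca
Rps27, chr3:90213629-90213658, minus strand: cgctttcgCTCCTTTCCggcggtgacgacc
Rps27l, chr9:66946076-66946105, plus strand: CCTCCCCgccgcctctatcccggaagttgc
Rpl39, chrX:37085203-37085232, minus strand: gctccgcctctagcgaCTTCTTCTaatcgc
Rpl39l, chr16:10170218-10170247, plus strand: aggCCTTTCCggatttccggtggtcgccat
Rpl7l1, chr17:46782637-46782666, minus strand: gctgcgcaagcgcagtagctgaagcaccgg
Rps19bp1, chr15:80264287-80264316, minus strand: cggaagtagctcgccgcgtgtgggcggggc

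Among the 66 member genes found in the RefSeq promoter table, 32 (48.5%) held such a tract near the annotated start, compared with 19.2% of all 32851 promoters. The share was 46.2% (6 of 13) for other genes listed as TOP mRNAs, 21.7% for mitochondrial ribosomal protein genes and 12.5% for ribosome biogenesis genes. A gene without a match in this window may still start its mRNA at a pyrimidine run, since annotated starts can lie some bases away from the true one. Conversely, a counted run that ends before the annotated start, as for Rps27l and Rpl39l, lies outside the mRNA as annotated. In the treatment response described below, 13 of 32 genes with a counted run and 15 of 32 without passed the cutoff with CGRP against IL-33. Their median log2 fold changes were 0.84 and 0.80.

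The level per transcript length differed widely among the genes. Rps27 was highest on this scale, at 9711 CPM per kilobase over the 16 libraries, followed by Rps14 at 6867, Rps18 at 6407, Rps19 at 6080 and Rplp1 at 5764. The lowest tested genes were Rpl24 at 1.12 CPM per kilobase, Rpl36al at 4.2, Rpl39l at 6.73 and Rpl13a at 8.39. Rpl24 and Rpl13a encode core proteins of the large subunit, yet Rpl24 had 118 and Rpl13a 1498 counts over all libraries. Exons of Rpl24 overlapped another annotated gene, Gm28037, by 484 bases, those of Rpl13a overlapped Gm45713 by 621 bases and those of Rpl23a, at 62.05 CPM per kilobase, overlapped Tlcd1 by 506 bases. For 81 of the 86 genes a stretch of at least 100 bases at 95% identity lies in another gene, and 39 overlap the exons of another gene, so reads may have been split or dropped at counting and levels of single genes are uncertain. Lengths rest on 1 annotated transcript per gene.

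**Figure D1:**
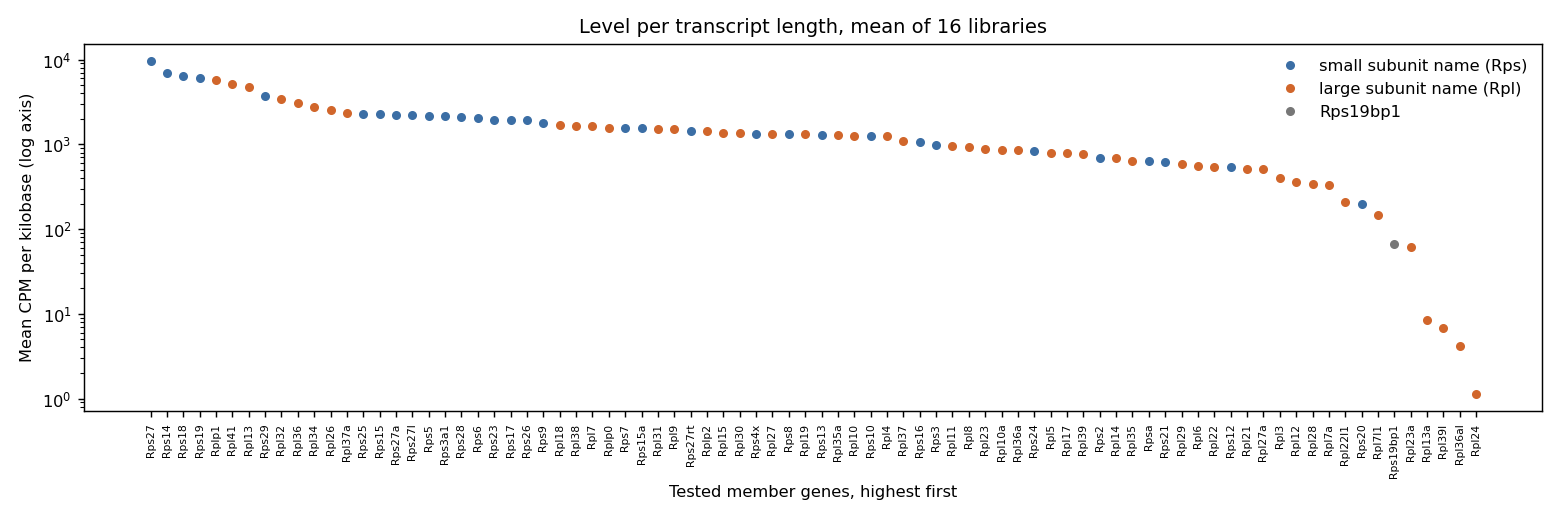
Mean CPM per kilobase of transcript over 16 libraries (log axis) for 82 of the 84 tested genes, highest first, with small subunit names in blue, large subunit names in orange and Rps19bp1 in grey. Rps27 leads at 9711 and Rpl24 is last at 1.12.

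The share of all counts falling on ribosomal protein genes followed the treatment. It was 9.717% and 8.507% in the WT and 9.86% and 9.151% in the Pac1-/- libraries with IL-7. With IL-33 it was 7.251% and 8.572% in WT and 7.386% and 8.664% in Pac1-/-. With CGRP it was 11.84% and 10.9% in WT and 14.53% and 14.18% in Pac1-/-, so that all 4 CGRP libraries lay above the other 12. With NMU it was 7.152% and 5.574% in WT and 9.995% and 8.146% in Pac1-/-. The mean share was 12.86% ± 1.77 (SD, n = 4) with CGRP and 7.968% ± 0.754 (SD, n = 4) with IL-33, a ratio of 1.61. It was 7.717% ± 1.85 (SD, n = 4) with NMU and 9.309% ± 0.616 (SD, n = 4) with IL-7. A share of a library says nothing about the amount per cell, and in bulk samples fewer cells of a type and less RNA per cell cannot be told apart.

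The percentage of counts on mitochondrially encoded genes moved the same way, from 3.94% to 7.96% with IL-33 and 3.32% to 5.54% with NMU to 8.60% to 10.2% with IL-7 and 8.30% to 12.6% with CGRP, and its part in the results below was not tested. With those genes left out of the total the ribosomal protein share was still 12.26% to 16.23% with CGRP and 7.619% to 9.314% with IL-33.

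**Figure D2:**
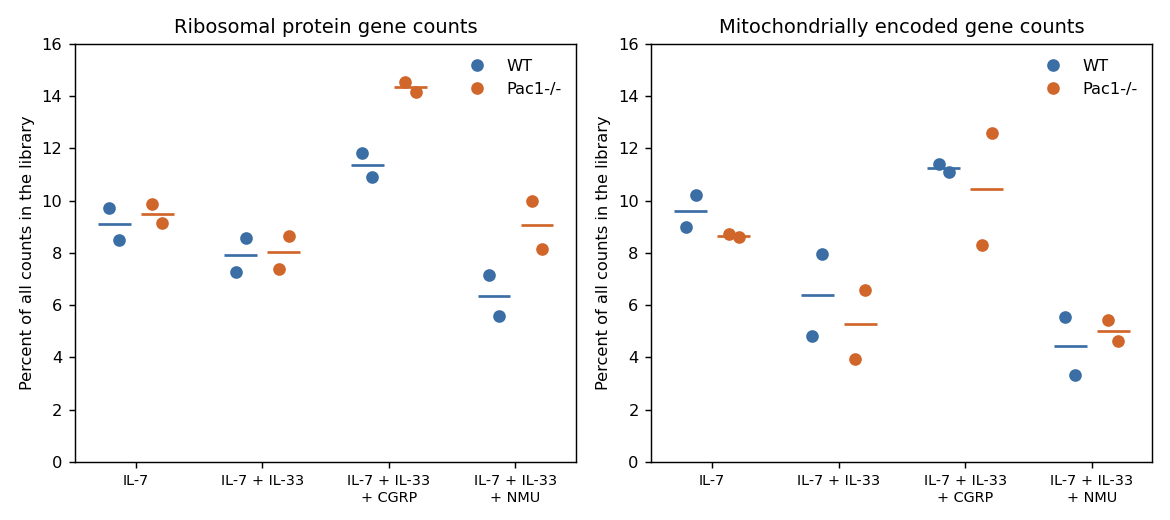
Percent of all counts per library on ribosomal protein genes (left) and on mitochondrially encoded genes (right), by treatment, with WT in blue and Pac1-/- in orange; each point is 1 library and each bar the mean of 2. The 4 CGRP libraries lie between 10.9% and 14.53% on the left.

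Ribosomal protein mRNAs were higher with CGRP than with IL-33 alone. Of the 84 tested genes, 40 passed a fold change above 1.5 at an adjusted P below 0.05 in the higher direction and 0 in the lower, whereas 1.65% of all genes tested were higher and 1.11% lower by the same cutoff. The median log2 fold change was 0.84, a 1.79-fold difference, against -0.09 for all genes tested, and 80 of the 84 lay above 0, compared with 46.8% of all genes. At an unadjusted P below 0.05, 71 were higher and 1 (Rpl39l) lower, compared with 7.62% and 9.11% of all genes. All 4 CGRP libraries exceeded all 4 IL-33 libraries for 65 of the genes and lay below for 0, compared with 5.82% and 3.89% of all genes.

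Rps27, a zinc finger protein of the small subunit, showed the greatest rise among those that passed. Its CPM, scaled by the trimmed mean of M values, was 1704 and 2902 in WT and 1699 and 1925 in Pac1-/- with IL-33, and 5502 and 4686 in WT and 5866 and 6274 in Pac1-/- with CGRP. The groups did not overlap, and the log2 fold change was 1.45 ± 0.25 (SE, adjusted P = 0.00731).
Rpl13, a large subunit protein, had the smallest P value. It had 3161, 2963, 3059 and 2508 CPM with IL-33 and 5173, 4893, 7647 and 6807 CPM with CGRP, and its log2 fold change was 1.05 ± 0.13 (SE, adjusted P = 7.54e-04). The Pac1-/- CGRP libraries were the highest of the 16 for Rpl13 and for most of the set: 43 genes peaked in Pac1-/- CGRP replicate 2 and 27 in replicate 1.

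The genes that passed came from both subunits, 18 of 33 of the small subunit (median log2 fold change 0.86) and 22 of 50 of the large subunit (0.83). From the small subunit they included Rps19, mutated in Diamond-Blackfan anemia, at 1.25 ± 0.21 (SE, adjusted P = 0.0067), Rps18 at 1.20, Rps29 at 1.18, Rps14 at 1.18, Rps3a1 at 0.96, Rps9 at 0.85, Rps25 at 1.05, Rps4x at 0.76 and Rps3 at 0.65. From the large subunit came Rpl32 at 1.38, Rpl37a at 1.37, Rpl36 at 1.27, Rpl35 at 1.21, Rpl37 at 1.10, Rpl36a at 1.03, Rpl14 at 0.92, Rpl3, at the peptidyl transferase center, at 0.84, Rpl7 at 0.70 and Rpl10, which joins late in 60S maturation, at 0.71. The values of this paragraph are log2 fold changes.

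The acidic stalk of the large subunit recruits the GTPases of translation, and its 3 proteins gave unequal values. Rplp1 rose, from 1943, 2842, 1775 and 2863 CPM with IL-33 to 4544, 3872, 4147 and 4641 CPM with CGRP, by 0.87 ± 0.20 on the log2 scale (SE, adjusted P = 0.0387). Rplp0, the scaffold of the stalk, had a log2 fold change of 0.41 ± 0.14 (SE, adjusted P = 0.146) and Rplp2 one of 0.57 ± 0.19 (SE, adjusted P = 0.152), and neither passed although their 4 CGRP libraries lay above their 4 IL-33 libraries. Rpl5 and Rpl11, which form the 5S particle and bind MDM2, had 0.40 ± 0.15 (SE, adjusted P = 0.209) and 0.76 ± 0.20 (SE, adjusted P = 0.0624). Rps6 had 0.69 ± 0.17 (SE, adjusted P = 0.0538), the ubiquitin fusion gene Rps27a 0.77 ± 0.25 (adjusted P = 0.128), Rpsa, also known as the laminin receptor, 0.63 ± 0.17 (adjusted P = 0.0629) and Rpl38, known for selective translation of Hox mRNAs, 0.53 ± 0.26 (adjusted P = 0.314).

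A log2 fold change below 0 was seen for 4 of the tested genes, 3 of them paralogs of a core gene and 1 no ribosomal protein. They were Rpl39l, Rpl7l1 at -0.61 ± 0.29 (SE, adjusted P = 0.317), Rps19bp1 at -0.28 ± 0.26 (adjusted P = 0.662) and Rps27l at -0.0032 ± 0.26 (adjusted P = 1), none past the cutoff. The next in order were core genes with small positive values, Rpl29 at 0.26, Rpl7a at 0.31 and Rpl28 at 0.32. Genes just inside the cutoff were Rpl10, with an adjusted P of 0.0464, and just outside it Rps6, with 0.0538.

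**Figure D3:**
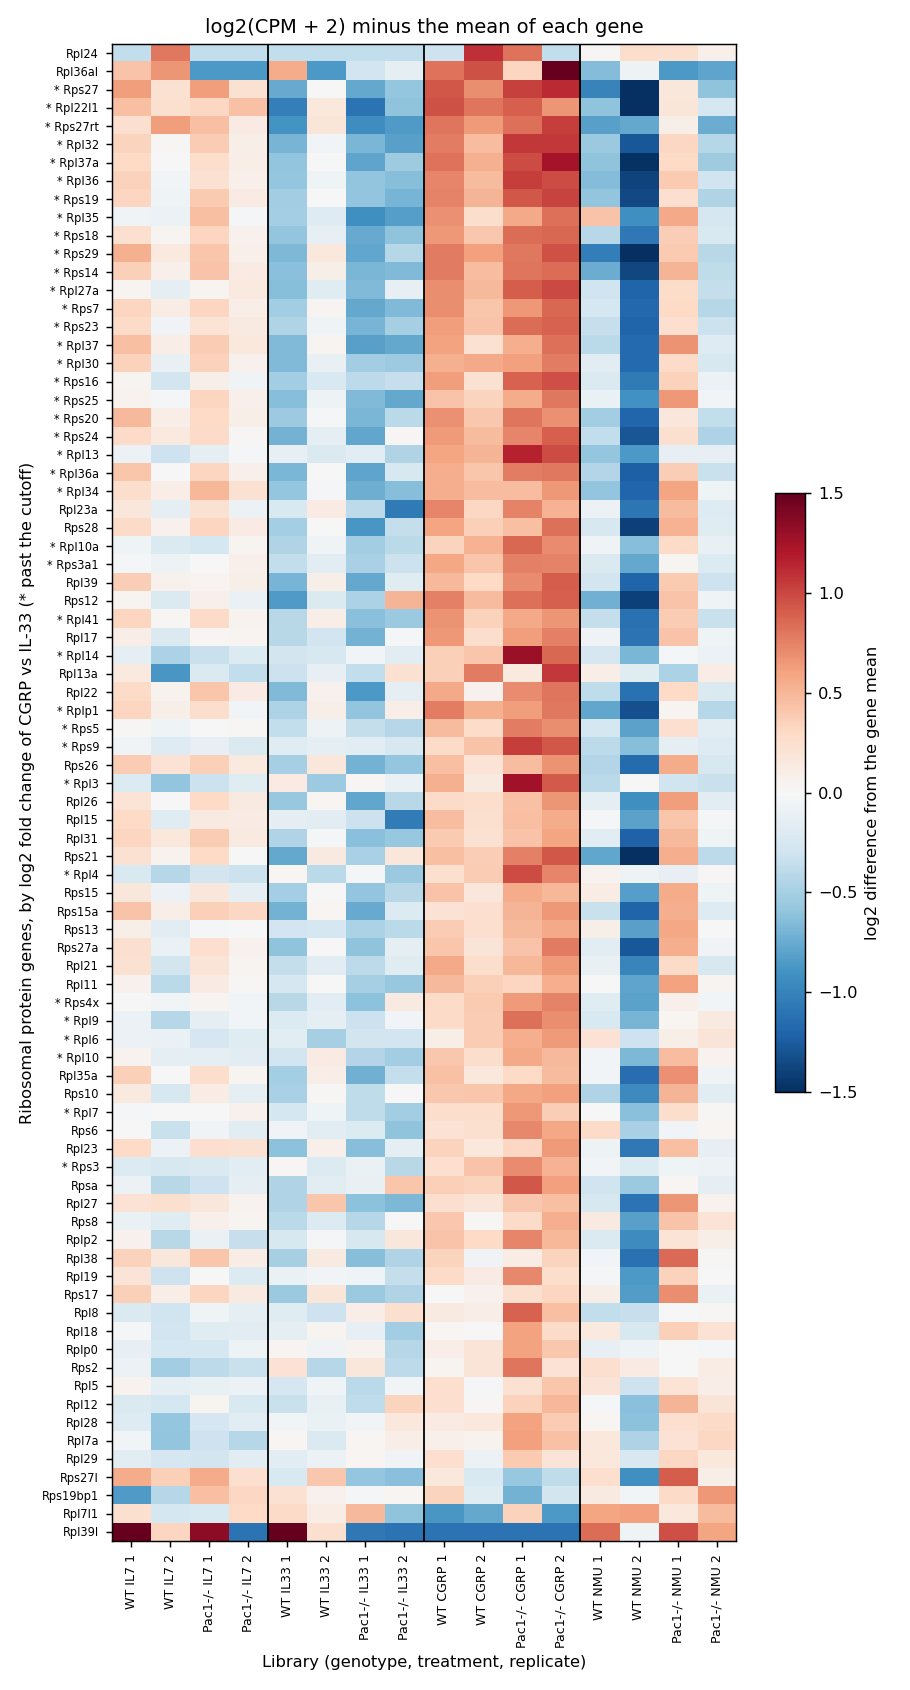
Heat map of log2(CPM + 2) minus the mean of each gene for 82 of the 84 genes (vertical, ordered by the log2 fold change of CGRP against IL-33, with an asterisk where past the cutoff) in 16 libraries (horizontal, lines between treatments). The 4 CGRP columns are red down most of the map, WT NMU replicate 2 is blue for most genes, and the bottom 4 genes, Rps27l to Rpl39l, leave the pattern.

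Most genes lay above 0 in each genotype when the contrast of CGRP against IL-33 was taken within it, in the same fit of 16 libraries. Within WT the median log2 fold change was 0.60, with 80 of 84 genes above 0 (51.8% of all genes). There edgeR called 0 genes in either direction (0.334% of all genes higher and 0.127% lower), and 40 were higher and 2 lower at an unadjusted P below 0.05 (4.05% and 6.18%). Within Pac1-/- the median was 1.12, with 81 genes above 0 (49.7% of all genes). There 23 were called higher and 0 lower (0.794% and 0.347%), and 71 were higher and 0 lower at an unadjusted P below 0.05 (4.99% and 5.3%). The difference between the genotypes did not pass the test for any gene: the interaction called 0, with 5 higher and 0 lower at an unadjusted P below 0.05, compared with 3.22% and 2.82% of all genes, and DESeq2 called 0. For Rpl13 the log2 fold change was 0.72 ± 0.18 in WT and 1.38 ± 0.18 in Pac1-/- (SE), and for Rps27 it was 1.15 ± 0.35 and 1.74 ± 0.35. The count of 40 genes in both genotypes was 26 without WT IL-33 replicate 1. Scaling by library totals alone gave 29 genes and a median of 0.60, and it moved the median of all genes to -0.33, so values are read relative to all genes. The B cell markers that were high in the Pac1-/- CGRP libraries moved with these values, and their part in them was not tested. In WT the B cell markers also summed to more with CGRP (123 to 191 CPM) than with IL-33 (69.5 to 72.8 CPM).

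Ribosomal protein mRNAs were also higher with CGRP than with NMU, a comparison that uses the same CGRP libraries. With CGRP against NMU 36 genes were higher and 1 lower, where 2.63% of all genes were higher and 2.84% lower, and the median log2 fold change was 0.73 against 0.02 for all genes. At an unadjusted P below 0.05, 62 were higher and 2 lower, compared with 9.81% and 10.4% of all genes. Rps27 had 1443, 750.5, 3254 and 1905 CPM with NMU (WT first), all below its CGRP values, and its log2 fold change was 1.73 ± 0.25 (SE, adjusted P = 0.0014). Rplp1 had 1558, 1068, 2762 and 1994 CPM with NMU and a log2 fold change of 1.28 ± 0.21 (SE, adjusted P = 0.00265), and Rps12 had 1.16 ± 0.25 (SE, adjusted P = 0.0174). All 4 CGRP libraries lay above all 4 NMU libraries for 38 genes and below for 1, compared with 6.86% and 6.46% of all genes. Within WT the median was 0.90, with 18 genes higher and 0 lower (0.708% and 0.634% of all genes), and within Pac1-/- it was 0.54, with 4 higher and 0 lower (0.848% and 0.734%). A difference between the genotypes in this comparison was not tested. The count of 37 was 57 without WT NMU replicate 1. WT NMU replicate 2 had the lowest value of the 16 libraries for 63 of the 84 genes. The surfactant transcripts of the WT NMU libraries moved with the low values, and the 6 B cell markers summed to 123 to 503 CPM with CGRP and 14 to 66.1 CPM with NMU, without overlap. The part of either in the comparison was not tested.

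No gene of the set passed the cutoff with NMU in place of CGRP. With NMU against IL-33 edgeR called 0 genes in either direction, where 0.154% of all genes were higher and 0.0334% lower. At an unadjusted P below 0.05, 4 were higher and 0 lower, compared with 2.96% and 3.54% of all genes, and DESeq2 also called 0. All 4 NMU libraries lay above all 4 IL-33 libraries for 1 gene and below for 0, compared with 2.27% and 2.08% of all genes. The median was 0.11 against -0.08 for all genes, with 64 genes above 0 and 20 below, compared with 44.4% and 53.9% of all genes. It was -0.30 in WT and 0.54 in Pac1-/- libraries, and it was -0.05 when libraries were scaled by their totals alone, so no direction is given. Rpl35 had the smallest P value of the set, 754.3 and 294.9 CPM in WT and 829.1 and 467.3 CPM in Pac1-/- with NMU against 391, 486.8, 294.4 and 314.3 CPM with IL-33, with a log2 fold change of 0.67 ± 0.27 (SE, adjusted P = 0.703). The groups overlapped.

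IL-33 against IL-7 gave values mostly below 0. The median log2 fold change was -0.38 against 0.08 for all genes, and 67 of the 84 genes lay below 0, compared with 46.6% of all genes. EdgeR called 0 genes in either direction, where 0% of all genes were higher and 0.0334% lower, with 33 lower and 0 higher at an unadjusted P below 0.05 (4.67% and 5.21% of all genes), and DESeq2 called 9 lower. All 4 IL-33 libraries lay below all 4 IL-7 libraries for 24 genes and above for 1, compared with 2.59% and 2.65% of all genes. Rps27 had 4455, 3387, 4457 and 3393 CPM with IL-7, and its log2 fold change was -0.94 ± 0.24 (SE, adjusted P = 0.332). Rplp0 and Rps3, in contrast, had 0.10 ± 0.14 and 0.04 ± 0.13. Of the 84 genes, 78 had their highest mean with CGRP, 4 with IL-7 and 2 with NMU, and 56 had their lowest with IL-33. The natural killer cell and ILC1 markers, carried by Gzma, summed to 111 to 230 CPM with IL-7 and to at most 6.01 CPM in the other libraries, and 8 T cell markers to 231 to 342 CPM with IL-7 and at most 177 CPM in the others. Their part in this comparison was not tested.

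The ratio of small to large subunit counts also differed between treatments. It was 1.013 ± 0.0238 (SD, n = 4) with IL-7 and 0.9246 ± 0.0485 with IL-33, and the 4 IL-33 libraries (0.8816 to 0.9712) lay below the 4 IL-7 libraries (0.9821 to 1.04). With CGRP it was 0.986 ± 0.0184 and with NMU 0.919 ± 0.0629 (SD, n = 4), and the values of these groups overlapped those of at least 1 other group.

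Paralogs of core genes are described beside their partners. Rps27l (ENSMUSG00000036781, chr9:66946086-66949516 in GRCm38), a p53 target and close paralog of Rps27, had 876.6, 1359, 686.5 and 666.7 CPM with IL-33 and 1147, 876.1, 695.4 and 793 CPM with CGRP, which overlapped. Expressed against Rps27, its counts came to 16% ± 4.4 with CGRP and 35.9% ± 2.4 with IL-7 (SD, n = 4). They came to 43.3% ± 7.4 with IL-33 and 68.8% ± 13 with NMU (SD, n = 4). The ranges were 11.9% to 20.9% (CGRP), 34.0% to 39.1% (IL-7), 34.6% to 51.4% (IL-33) and 57.4% to 85.4% (NMU), so the CGRP libraries lay below and the NMU libraries above all others. This ratio was chosen after its values were seen and is given without a test. No stretch of Rps27l was near-identical to another gene by the criterion above, whereas 98.8% of the Rps27 transcript was, including the retrocopy Rps27rt. Rps27rt counted 15.5% of Rps27 with CGRP and 15.7% with IL-33, and it rose with CGRP by 1.41 on the log2 scale, close to the value of Rps27, with which it may share reads.

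Rpl22l1 and Rpl22 encode alternative large subunit proteins. Rpl22l1 had 48.81, 114.2, 46.18 and 66.29 CPM with IL-33 and 199.1, 179.1, 191.6 and 162.7 CPM with CGRP, and rose by 1.44 ± 0.30 on the log2 scale (SE, adjusted P = 0.0215). Rpl22 had 0.91 ± 0.25 (SE, adjusted P = 0.0832). The count of Rpl22l1 was 53.2% ± 14 of that of Rpl22 with CGRP and 35.6% ± 6.7 with IL-33 (SD, n = 4), and the ranges overlapped.
Rpl7l1, a nucleolar relative of Rpl7, had 99.12, 106.9, 232.7 and 99.56 CPM with CGRP and 277.4, 280.5, 205.4 and 256 CPM with NMU. Its log2 fold change of CGRP against NMU was -0.96 ± 0.30 (SE, adjusted P = 0.0822), with Pac1-/- CGRP replicate 1 inside the NMU range.
Rpl39l, a paralog of Rpl39 known from testis, was the 1 gene lower with CGRP than with NMU (adjusted P = 0.0390). It had 0 counts in all 4 CGRP libraries and 37, 19, 67 and 50 counts with NMU, so the level with CGRP was at least 12.6-fold lower when set at 3 counts in the shallowest CGRP library. With IL-33 it had 184 and 31 counts in WT and 1 and 0 in Pac1-/-, and with IL-7 170 and 37 in WT and 102 and 0 in Pac1-/-, so libraries of 1 group were far apart. Rpl36al, with 0 to 72 counts, and Rpl24, with 0 to 32, were as uneven, and their fitted fold changes are not given.

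By edgeR no ribosomal protein gene passed the cutoff between genotypes within any treatment, with or without a neuropeptide. With IL-7 the median log2 fold change of Pac1-/- against WT was 0.03, with 0 genes called in either direction by edgeR (0% of all genes higher and 0.00668% lower), 1 higher and 1 lower at an unadjusted P below 0.05 (Rps19bp1 and Rpl36al, compared with 2.11% and 2.34% of all genes) and 0 by DESeq2. There 53 genes lay above 0 and 31 below, compared with 47% and 47.5% of all genes. With IL-33 it was -0.19 (0.06 when libraries were scaled by their totals alone, so no direction is given), with 0 called (0% and 0.00668% of all genes), 0 higher and 2 lower at an unadjusted P below 0.05 (Rpl39l among them, compared with 1.69% higher and 2% lower of all genes) and 0 by DESeq2. There 20 genes lay above 0 and 63 below, compared with 51% and 44.4% of all genes. Both Pac1-/- libraries with IL-33 exceeded both WT libraries for 5 genes and lay below for 26, compared with 17.5% and 14.7% of all genes. With IL-7 these counts were 7 and 4, compared with 14.4% of all genes in each direction. With CGRP it was 0.26 against 0.06 for all genes, with 0 called (0.0401% higher and 0.0668% lower), 7 higher at an unadjusted P below 0.05 (4.4% of all genes) and 3 higher by DESeq2. Both Pac1-/- CGRP libraries exceeded both WT CGRP libraries for 57 genes and lay below for 2, compared with 19.3% and 13.9% of all genes. The B cell markers given above were higher in those Pac1-/- libraries too. Rps9 had 1569 and 1728 CPM in WT and 2642 and 2463 CPM in Pac1-/- with CGRP, and its log2 fold change was 0.63 ± 0.18 (SE, adjusted P = 0.336).

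With NMU the median for Pac1-/- against WT was the highest of the 4 treatments. The median log2 fold change was 0.66 against 0.00 for all genes, and 78 of 84 genes lay above 0, compared with 52.2% of all genes. EdgeR called 0 genes (0.0134% of all genes higher and 0.00668% lower), although 40 were higher at an unadjusted P below 0.05, compared with 1.52% of all genes, and DESeq2 called 2 higher. Both Pac1-/- libraries exceeded both WT libraries for 53 genes and lay below for 3, compared with 14.5% and 15.6% of all genes. Rps29 had 628 and 449.5 CPM in WT and 1695 and 960.7 CPM in Pac1-/-, and its log2 fold change was 1.30 ± 0.33 (SE, adjusted P = 0.799). Rps14 had 2241 and 1454 CPM in WT and 5334 and 2870 CPM in Pac1-/-, a log2 fold change of 1.15 ± 0.32 (SE, adjusted P = 1). Rplp0 and Rps6 had 0.09 ± 0.19 and 0.05 ± 0.24. The median was 1.16 without WT NMU replicate 1, 0.33 without WT NMU replicate 2 and 0.38 without Pac1-/- NMU replicate 1. The WT NMU libraries had the lowest total counts of the 16, 6764992 and 7826406, and the part of depth was not tested. The 7 epithelial markers given above summed to more in the WT libraries of this comparison. Among them Epcam overlapped between genotypes (37.5 and 41.3 CPM in WT, 23.1 and 52 CPM in Pac1-/-). A list of 8 myeloid markers also summed to more in WT (47.9 to 122 CPM in WT and 2.19 to 13.7 CPM in Pac1-/-). The part of these markers in the comparison was not tested.

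**Figure D4:**
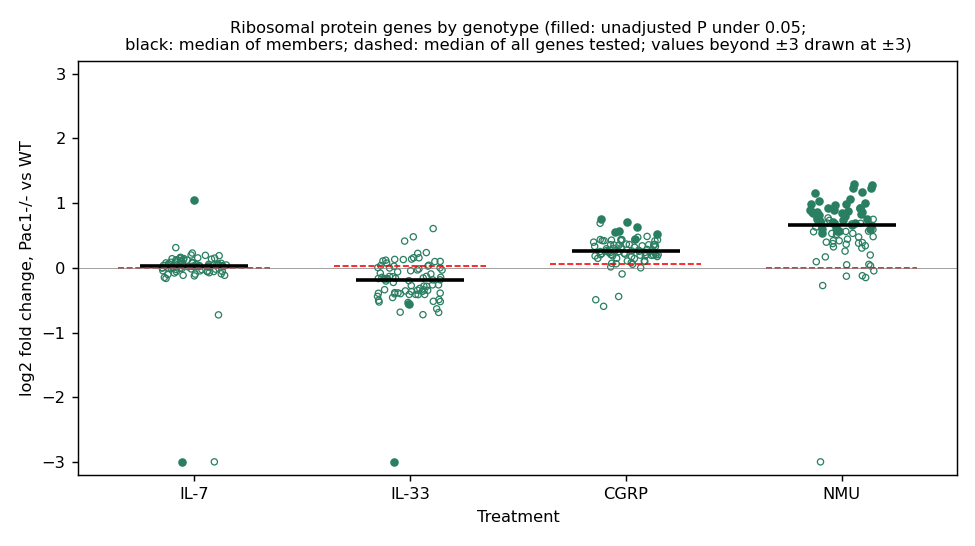
Log2 fold change of Pac1-/- against WT for the 84 genes (points) in each treatment, with the median of the genes in black and that of all genes tested dashed; filled points have an unadjusted P below 0.05. The black line sits at 0.03 (IL-7), -0.19 (IL-33), 0.26 (CGRP) and 0.66 (NMU), and no point passed the cutoff.

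Across all treatments Pac1-/- against WT had a median of 0.19, with 79 of 84 genes above 0 and 5 below (52.9% and 47.1% of all genes). EdgeR called 0 (0.0668% of all genes higher and 0.0467% lower), with 12 higher and 1 lower at an unadjusted P below 0.05 (3.54% and 3.23% of all genes), and DESeq2 called 0. For 0 genes did all 8 libraries of either genotype lie above all 8 of the other, compared with 0.0734% and 0.0267% of all genes. The test of the difference itself, the interaction of genotype and treatment, called 0 genes of the set and 0% of all genes in each direction. For IL-33 against IL-7 its median was -0.24, with 1 gene higher and 1 lower at an unadjusted P below 0.05 (2.87% and 1.98% of all genes) and 0 called by DESeq2. For CGRP against IL-33, with the counts given above, the median was 0.52. For NMU against IL-33 it was 0.83, with 37 genes higher and 0 lower at an unadjusted P below 0.05 (3% and 2.43% of all genes) and 5 called by DESeq2. The median for NMU was 1.28 without WT NMU replicate 1, 0.50 without WT NMU replicate 2 and 0.55 without Pac1-/- NMU replicate 1.

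Mitochondrial ribosomal protein genes, biogenesis genes and chaperone genes gave medians below 0 with CGRP. Against IL-33, 1.65% of all genes tested passed the cutoff higher and 1.11% lower, and their median was -0.09. The 1 mitochondrial ribosomal protein gene called is near that share and is not read as a result about its list. With CGRP against IL-33, 77 tested mitochondrial ribosomal protein genes had a median log2 fold change of -0.47 with 0 higher and 1 lower, Mrpl19 at -1.94 ± 0.40 (SE, adjusted P = 0.0221). The 52 ribosome biogenesis genes had a median of -0.50 with 4 lower and 1 higher. The 4 were Mrto4, which acts on the pre-60S particle, at -2.88, Gnl2 at -1.77, Wdr12 at -1.54 and Nop16 at -1.11. The 1 was Taf1d, a subunit of the RNA polymerase I selectivity factor, at 1.21. Of 6 tested ribosomal protein chaperones Heatr3 was lower, at -6.175 ± 1.29 (SE, adjusted P = 0.02615), and the median was -0.40. For Heatr3 the log2 fold change of Pac1-/- against WT was -7.50 with CGRP and -0.09 with IL-33, neither past the cutoff. Its pooled value thus rests mostly on the Pac1-/- CGRP libraries.
In contrast to these lists, of 20 other genes listed as TOP mRNAs 2 rose, Eef1a1, which delivers tRNA to the ribosome, at 0.63 ± 0.13 (SE, adjusted P = 0.0179) and Fau, whose product carries the ribosomal protein eS30, at 0.97 ± 0.19 (SE, adjusted P = 0.0166), and the median was 0.35. Of 23 genes around mTORC1 and MYC, Rps6kb1, the S6 kinase, was higher at 1.26 ± 0.22 (SE, adjusted P = 0.00859), and the median was 0.22.

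Against NMU more genes of these lists passed the cutoff, and so did more of all genes tested. Of all genes 2.63% were higher and 2.84% lower against NMU, compared with 1.65% and 1.11% against IL-33. With CGRP against NMU 14 of 52 biogenesis genes were lower and 0 higher, with a median of -1.20, and the 3 of smallest P value were Mrto4 at -4.06, Nop16 at -2.02 and Nhp2, of the box H/ACA particles, at -1.49. Of 77 mitochondrial ribosomal protein genes 7 were lower and 0 higher, with a median of -0.65, among them Mrpl19 at -2.67 and Mrps28 at -1.41. Of 6 chaperones 2 were lower, Bccip and Heatr3, the latter with the same uneven CGRP libraries, and the median was -1.26. Eef1a1 and Fau were higher and Npm1, a nucleolar protein, was lower at -0.67 among the other TOP list genes (median 0.17), and Rps6kb1 was higher and Eif4ebp1 lower at -1.87 among the mTORC1 and MYC genes (median -0.12).
With NMU against IL-33 the biogenesis genes had a median of 0.74, with 50 of 52 above 0 and 1 higher, Nhp2 at 0.98 ± 0.17 (SE, adjusted P = 0.0315), the mitochondrial ribosomal protein genes one of 0.25, the other TOP list genes 0.17, the chaperones 0.46 and the mTORC1 and MYC genes -0.01, with 0 called in these 4 lists (5, 7, 1 and 4 genes at an unadjusted P below 0.05, where 2.96% of all genes were higher and 3.54% lower). With IL-33 against IL-7 the medians were 0.42 for biogenesis, -0.03 for mitochondrial ribosomal proteins, 0.06 for the other TOP list genes, 0.31 for chaperones and 0.30 for mTORC1 and MYC genes, with 0 called in any. By unadjusted P below 0.05 these lists had 9, 19, 2, 0 and 2 genes, where 5.21% of all genes were higher and 4.67% lower. By the cutoff, 0.154% of all genes were higher and 0.0334% lower with NMU against IL-33. With IL-33 against IL-7 these shares were 0% and 0.0334%.

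**Figure D5:**
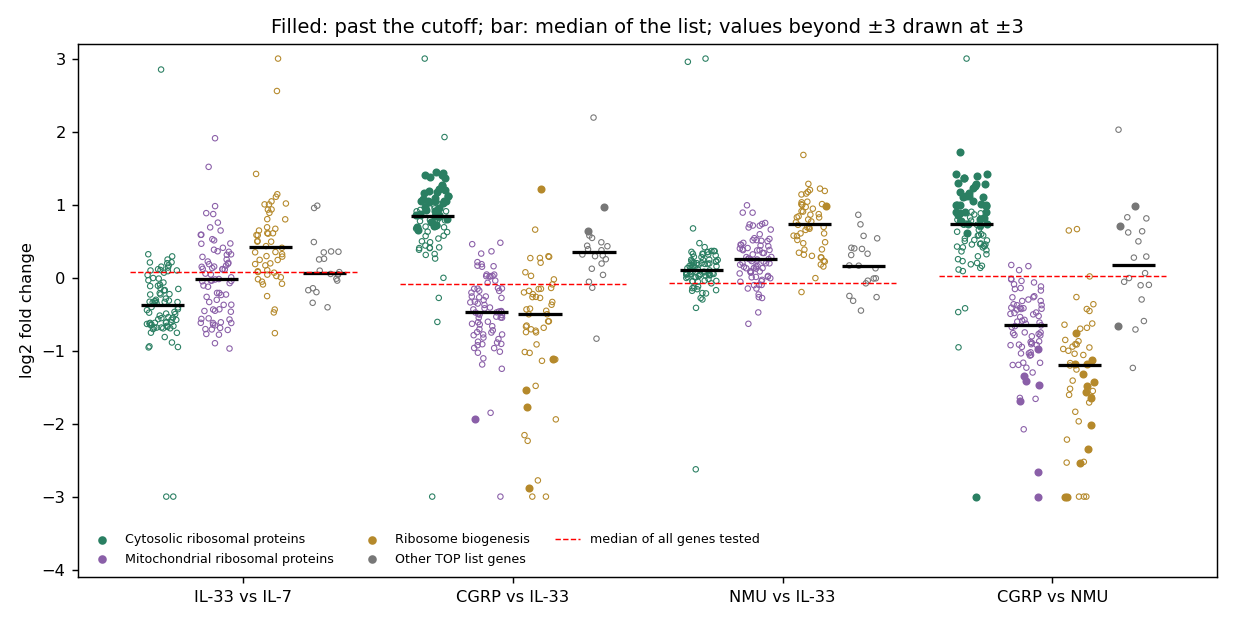
Log2 fold change of each gene of 4 lists in 4 treatment comparisons over both genotypes, with filled points past the cutoff, black bars at the list medians and the dashed line at the median of all genes tested; values beyond 3 or -3 are drawn at that limit. With CGRP against IL-33 the cytosolic ribosomal proteins center at 0.84 and the biogenesis genes at -0.50.

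The replicate spread of the set was smaller than that of all genes tested, which were not matched to it by level. The median SD of log2 CPM between the 2 libraries of a group was 0.31 for its 84 genes and 0.57 for all genes tested, and the biological coefficient of variation had a median of 0.24 and 0.96. The genes of the set tended to move together within a library, so the libraries of a group came apart. The median log2 CPM of the set differed between replicates with an SD of 0.27. The genes are therefore not independent of each other within a library.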

How the data were processed

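Per the labels and the study's methods, about 500 ILC2s per library were sorted into lysis buffer, cDNA was amplified with a full-length single-cell kit, and libraries were sequenced as paired 150-base reads on a NovaSeq and aligned to mm10 with HISAT2. The authors deposited raw counts per gene. The counting tool, annotation, treatment of reads with several matches and use of strand are not given in the sources used here, so reads of overlapping, antisense or near-identical genes cannot be told apart. Amplification from few cells can widen the spread of low genes.

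Gene symbols came from GENCODE M21 (GRCm38), which held 51719 of the 51912 identifiers. The genes, the gene lists and the tests were chosen with earlier results of these data known. Counts were scaled by the trimmed mean of M values (TMM) and tested with the quasi-likelihood test of edgeR 4.0.16 in R 4.3.3 after filterByExpr, with all 16 libraries in 1 fit of 8 group means (8 residual degrees of freedom), contrasts averaged over genotypes or treatments, and Benjamini-Hochberg adjustment over 14979 genes. A gene was called at a fold change above 1.5 and an adjusted P below 0.05. CPM of members are TMM-scaled; shares and marker CPM are of library totals (a floor of 3 counts is 0.188 to 0.443 CPM, for counting error only). The fit was tested on simulated data. Near-identical stretches were found with BLAST 2.17.0, and start sequences came from the RefSeq table of GRCm38.p6. Tracts were sought on the strand of the gene only.

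Genes were named if past the cutoff (up to 10 a direction, by P), among the 3 highest or lowest fold changes of a comparison, a paralog of a core gene or of known role, among the 5 highest or lowest per kilobase, or among the 5 of largest replicate spread, and for other lists by the 3 smallest P values. Further called genes given by name, and Rpl29, Rpl7a, Rpl28 and Rpl22, were chosen after their values were seen. The deviations of same-numbered libraries correlated above 0.1 in 0 of 28 group pairs over all genes tested and in 13 of 28 over the ribosomal protein genes (-0.698 to 0.643), so not in every pair, and replicate numbers were not used as pairs. Alternatives were DESeq2 1.42.0, other scalings, no filter, fits to parts of the libraries, a replicate block and leaving out each library. Counts and medians are over all tested genes of a list, and 3 genes of these lists are not reported here by name or drawn in figures that name genes.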

Additional observations from a re-analysis of the deposited data

Results flagged for a closer look

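Among 312 sets of library values examined, 16 single libraries lay far from the rest of their treatment or genotype. About 1 in 20 sets would be flagged by chance, near the share found, so none of the 16 is read as a result. Of these, 6 were WT IL-33 replicate 2, which was above the other IL-33 libraries for Rpl32 (1558 CPM), Rpl36 (1012 CPM), Rpl37 (867.7 CPM), Rps14 (3964 CPM), Rps25 (1176 CPM) and Rps27rt (549.3 CPM). Among the IL-7 libraries WT replicate 1 stood apart for Rpl10 (1007 CPM) and Rpl39 (577.8 CPM), WT replicate 2 for Rpl24 (2.477 CPM) and Pac1-/- replicate 1 for Rpl35 (765.9 CPM). Among the CGRP libraries Pac1-/- replicate 1 stood apart for Rpl7l1 (232.7 CPM) and WT replicate 2 for Rps14 (5171 CPM), and among the NMU libraries Pac1-/- replicate 1 did for Rps27rt (514.4 CPM). Among all Pac1-/- libraries CGRP replicate 2 stood apart for Rpl13a (19.27 CPM) and Rpl36al (9.309 CPM), and CGRP replicate 1 for Rpl24 (2.537 CPM).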

How the results depend on the processing

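No direction of a called gene turned under any alternative run, and the sizes moved. With DESeq2 the number of genes past the cutoff was 65 for CGRP against IL-33, 9 for IL-33 against IL-7, 3 and 2 for Pac1-/- against WT with CGRP and with NMU, and 5 for the NMU interaction. Without a filter on low counts it was 13 for IL-33 against IL-7, 7 for Pac1-/- against WT with NMU and 8 for the NMU interaction. For CGRP against IL-33 it was 0 within WT and 23 within Pac1-/- (median 1.12), and for CGRP against NMU 18 and 4, and 24 with the libraries of that comparison only. The median for NMU against IL-33 was -0.30 in WT and 0.537 in Pac1-/-, and that of the NMU interaction was 0.446 with library totals alone (all genes -0.539). The mean share with IL-7 was 10.24% without mitochondrially encoded genes and 10.13% of protein-coding counts. The cause of these shifts was not tested. Contrasts within 1 genotype compare fewer libraries. Shares of all genes called are given above for these contrasts but not for DESeq2 or the other alternative runs. The counts of those runs are therefore not read as particular to the set.

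Leaving out 1 library at a time gave 26 to 57 genes for CGRP against IL-33, 28 to 57 for CGRP against NMU, 0 to 3 for IL-33 against IL-7 and 0 to 2 for Pac1-/- against WT with NMU, where the median ran from 0.333 to 1.16, and from 0.496 to 1.28 for the NMU interaction. Where this left a group with 1 library, that library is assumed to vary like the other groups. Of the 40 genes higher with CGRP than with IL-33, 0 passed under every alternative, and of the 37 called against NMU 2 did. The 0 follows from the contrast within WT, in which none of the 40 passed. Of the same 40 genes, 40 passed with DESeq2 and 40 without a filter on low counts. With library totals alone 29 passed, with the libraries of the comparison only 28 and within Pac1-/- 23.

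With the replicate number as a block the counts were 39 for CGRP against IL-33 and 37 for CGRP against NMU, with medians of 0.841 and 0.747. With 2 libraries a group, single-gene differences between genotypes rest on few values, and the depth limits Rpl24, Rpl36al and Rpl39l most.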
